A study of Homo sapiens with 9 samples.

Results

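The mitochondrial ribosomal proteins were followed in HAP1, a near-haploid human cell line that grows attached and derives from a chronic myeloid leukaemia line. The members were all genes whose name in the count tables is MRPL or MRPS with a number and at most 1 capital letter, without pseudogenes and antisense genes, which gave 77 of 26485 gene models. Of these, 48 are named for the large subunit (MRPL) and 29 for the small subunit (MRPS). Total RNA had been purified with NAxtra magnetic beads from wild-type cells, sorted by flow cytometry into lysis buffer and treated with DNase, and made into libraries with the SMART-Seq Stranded Kit. There were 9 libraries, 3 of single cells and 2 each of 10, 100 and 1000 cells, all from untreated cells in the same medium. The groups differed in the number of cells sorted. The protocol also gave 1000 cells more DNase than the smaller inputs, which cannot be told apart from their cell number. A single-cell library reads 1 cell, and a larger library reads the mean of its cells, in which fewer cells with a transcript and less of it per cell cannot be told apart. The extraction notes call the replicates biological without naming separate cultures, so the p-values measure the spread between these libraries, which may be technical.

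Mitochondria keep their own ribosome, the mitoribosome, which translates the few proteins encoded in mitochondrial DNA, all of them subunits of the respiratory chain and the ATP synthase. Its ribosomal RNAs come from mitochondrial DNA, but every one of its proteins is encoded in the nucleus, translated in the cytosol and imported, so that a cell has to supply many unlinked gene products for 1 particle. Many of these proteins have a counterpart in the bacterial ribosome and others were added in mitochondria. By a list set by hand, 46 of the members have a bacterial counterpart, 30 are specific to mitochondria, and MRPS36 is today counted as a part of the oxoglutarate dehydrogenase complex despite its name.

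The genes are scattered over the chromosomes, and what their promoters share in sequence was read from the RefSeq windows of GRCh38.p14, which run from 250 bases before to 50 bases after each annotated start. A window was found for 68 of the 77 members. The letters CCGGAAG, the core bound by GABPA and other ETS factors, stood on either strand in 29 of the 68 (42.6%), against 12.2% of the 27305 genes with a window and 20.9% of the 10901 with a window among the genes tested in single cells (69.9% of 15603), which passed the same filter as the members. The letters AAGATGGC, bound by YY1, stood in 21 members (30.9%), against 3.52% of all genes and 6.07% of the tested genes. The NRF1 motif (GCGCA, any base, GCGC), bound by a regulator of nuclear genes for mitochondria, stood in 9 members (13.2%), against 6.98% of all genes and 12.5% of the tested genes, so that its share in the members was close to that in the tested genes. No motif contains another, and 47 members (69.1%) held at least 1 of them, against 20.0% of all genes and 34.2% of the tested genes. A match is a description of the letters and not a binding site. The windows of 4 members whose levels are described further on are shown from 80 bases before to 30 bases after the start, on the strand of the gene, with the matches in capitals on whichever strand they were read. MRPL20 (chr1:1407264-1407373, minus strand) and MRPS34 (chr16:1773105-1773214, minus strand) are among the highest members, MRPL46 (chr15:88467359-88467468, minus strand) and MRPS9 (chr2:105037989-105038098, plus strand) were lower in single cells, and together the 4 hold each of the motifs.
MRPL20: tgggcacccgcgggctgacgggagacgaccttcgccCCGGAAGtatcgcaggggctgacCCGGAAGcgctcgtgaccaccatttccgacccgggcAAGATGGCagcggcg
MRPS34: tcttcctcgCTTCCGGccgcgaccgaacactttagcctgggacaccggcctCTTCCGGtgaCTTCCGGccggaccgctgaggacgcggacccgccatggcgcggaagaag
MRPL46: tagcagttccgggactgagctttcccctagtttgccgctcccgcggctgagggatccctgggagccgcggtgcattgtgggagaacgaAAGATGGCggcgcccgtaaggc
MRPS9: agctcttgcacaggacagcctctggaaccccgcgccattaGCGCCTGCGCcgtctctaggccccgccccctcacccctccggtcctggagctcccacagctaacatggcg
The ETS letters lie before the start in MRPL20 and MRPS34, and the YY1 letters lie after it in MRPL20 and MRPL46. In the first window listed for each member, 15 of 21 YY1 matches lay after the start. These are matches and not the 21 members above, since MRPL52 holds 2 of them.

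Before the results, the libraries were compared with their labels. Between 42842970 and 61645865 reads were assigned to genes in each library, with no depth gap between the single cells and the others. CPM are read counts per 1000000 of the library total after TMM scaling, which adjusts the totals between libraries. BCR and ABL1, the fused pair carried by HAP1, summed to between 13.8 and 44.2 CPM in single cells. In the 6 other libraries the sum lay between 32.9 and 39.7 CPM. The lowest sum was that of single cell Rep 3, where BCR read 4.56 CPM, against 23.9 and 21.9 CPM in Rep 1 and 2. ABL1 was lowest in Rep 2, with 5.75 CPM. The 5 fibroblast markers summed to between 3.76 and 15.3 CPM in single cells and between 8.51 and 17.0 CPM in the others. In single cells the whole sum was COL1A1, with 7.59, 3.76 and 15.3 CPM, while COL1A2, COL3A1, DCN and LUM were at 0. The 5 white blood cell markers were at 0 in the single cells and reached at most 0.445 CPM elsewhere, and the 3 keratinocyte markers were at 0 in all 9 libraries.

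All 77 members were detected in all 9 libraries, also in every single cell. The smallest value was 1 count, for MRPS24 in single cell Rep 3. Together the members took 0.413% ± 0.0197 (SD, n = 3) of all assigned counts in single cells, 0.428% ± 0.0130 (SD, n = 2) in 10 cells, 0.439% ± 0.0315 (SD, n = 2) in 100 cells and 0.462% ± 0.00299 (SD, n = 2) in 1000 cells. By library the share was 0.435%, 0.407% and 0.396% in the single cells, 0.437% and 0.419% in the 10-cell, 0.417% and 0.462% in the 100-cell, and 0.460% and 0.464% in the 1000-cell libraries, so the single cells overlapped with the libraries of 10 and 100 cells and lay below those of 1000.

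Levels between genes were compared as RPKM, the CPM divided by the length of the exons in kilobases, averaged over the 9 libraries. The median member stood at 33.0 RPKM, against 388 RPKM for the median of the cytosolic ribosomal proteins, and the members spanned 28.3-fold. The median was 33.7 RPKM for the large subunit and 32.0 RPKM for the small subunit. The highest members were MRPS34 with 114.9 ± 6.79 RPKM, MRPL51 with 112 ± 10.3, MRPL20 with 109.7 ± 20.4, MRPL18 with 103 ± 9.62 and MRPS15 with 91.5 ± 16.3 RPKM (SD, n = 9 libraries each). The neighbours in this order did not differ beyond their spread. MRPS34 and MRPL51 are specific to mitochondria, while MRPL20, MRPL18 and MRPS15 have bacterial counterparts.

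The lowest members were MRPS24 with 4.06 ± 1.85 RPKM, MRPS36 with 7.65 ± 2.98, MRPL22 with 10.3 ± 2.21, MRPL43 with 12.7 ± 2.59 and MRPL55 with 12.8 ± 4.97 RPKM (SD, n = 9 each). The value of MRPS24 (chr7:43866558-43869546, minus strand) rests on a small part of its exons. In the gene models of the count tables, 87.1% of its exon bases are shared on the same strand with the readthrough gene URGCP-MRPS24, which had 0 counts in every library, and reads that overlap 2 genes were left unassigned. MRPS6 shares 22.5% of its exon bases with SLC5A3 in the same way. A further 12 members overlap exons of a gene on the opposite strand, which strand-aware counting keeps apart.

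Single cells were compared with the 6 libraries of 10, 100 and 1000 cells to see which mitoribosome genes read differently in 1 cell than in a mean of cells. Of the 77 members, 9 were lower and 1, MRPS12, was higher in single cells by edgeR's quasi-likelihood test with an adjusted p under 0.05 over all genes. All 77 passed the filter on low counts. The 10 are 13.0% of the members, against 6.67% of the 15603 genes tested (4.45% lower and 2.22% higher). Among genes of at least 10 CPM in 2 libraries, which hold 76 of the members, again 9 members were lower and 1 higher, against 2.53% lower and 2.99% higher of 10448 genes. Of the 10, 6 belong to the large subunit (12.5% of 48) and 4 to the small subunit (13.8% of 29), and 7 have a bacterial counterpart while 3 are specific to mitochondria.

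**Figure D1:**
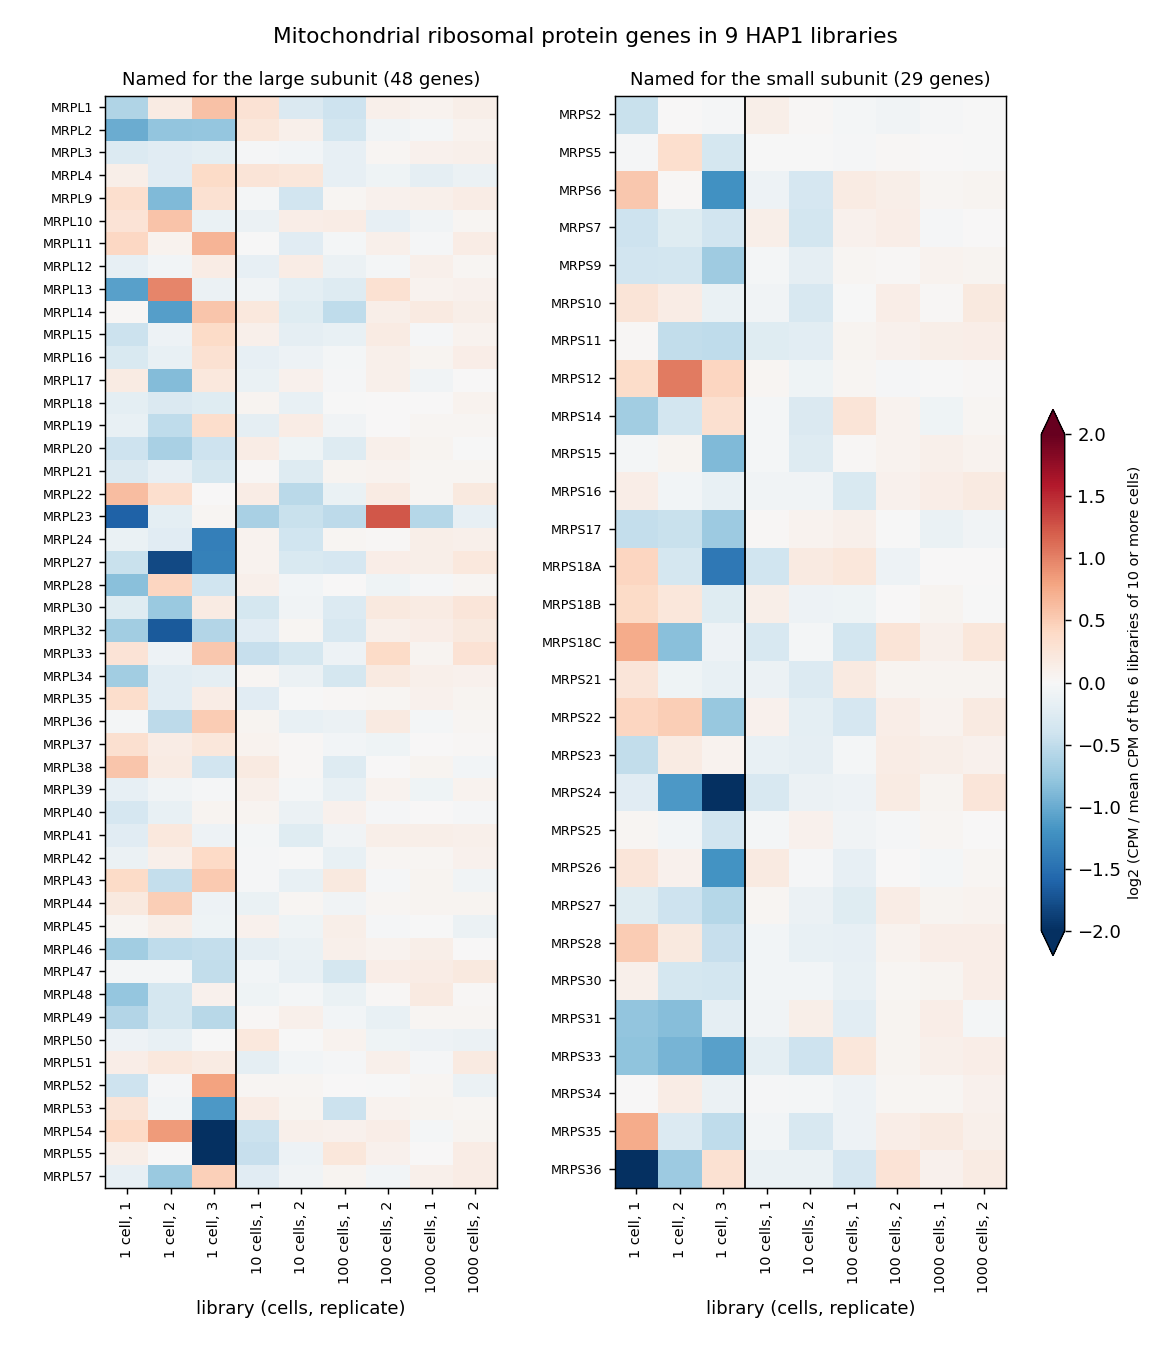
Each row is a gene of the large (left) or small subunit (right) and each column a library, single cells left of the line, coloured by log2 of its CPM over its mean CPM in the 6 libraries of 10 or more cells (colours end at -2 and 2). Strong colours lie mostly left of the line, more of them blue than red, with MRPL2 and MRPS33 blue in all 3 single cells and MRPL23 red in 100 cells Rep 2.

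MRPL2 is the counterpart of the bacterial protein at the peptidyl transferase centre. It read 16.8, 19.2 and 19.4 CPM in the single cells, against 39.2 and 35.9 CPM in 10 cells, 25.7 and 31.7 CPM in 100 cells and 32.4 and 35.2 CPM in 1000 cells. The groups did not overlap, and the log2 fold change was -0.85 ± 0.18 (SE; edgeR adjusted p = 0.0247). MRPS33, a small protein specific to mitochondria, read 13.7, 12.6 and 11.3 CPM in the single cells, against 20.9 and 17.9 CPM in 10 cells, 28.0 and 24.8 CPM in 100 cells and 25.7 and 26.4 CPM in 1000 cells. Its log2 fold change was -0.94 ± 0.21 (SE; edgeR adjusted p = 0.0274), again without overlap, and the libraries of 10 cells lay between the single cells and the larger libraries. MRPL2 and MRPS33 were the only members more than 1.5-fold below the mean of the 6 libraries and below each of them in all 3 single cells.

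MRPL27 and MRPL32 had the widest spread of those that were lower. MRPL27, whose bacterial counterpart reaches towards the peptidyl transferase centre, read 21.3, 8.26 and 11.3 CPM in the single cells, against 23.0 to 33.5 CPM in the 6 libraries (log2 fold change -1.09 ± 0.29 SE, edgeR adjusted p = 0.0466). MRPL32, which in yeast and mouse has to be cut by the m-AAA protease before it joins the ribosome, read 26.4, 13.3 and 28.5 CPM, against 34.0 to 48.9 CPM (-0.91 ± 0.24 SE, edgeR adjusted p = 0.0444). Single cell Rep 2 was the lowest for both.

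The other 5 that were lower changed by similar amounts. MRPL46, specific to mitochondria, read 41.3, 47.1 and 47.9 CPM in the single cells, against 58.7 to 72.6 CPM in the others (log2 fold change -0.56 ± 0.12 SE, edgeR adjusted p = 0.0249). MRPS17, a protein with a bacterial counterpart, read 41.5, 42.5 and 34.9 CPM, against 52.5 to 62.3 CPM (-0.55 ± 0.12 SE, edgeR adjusted p = 0.0279). MRPL49, specific to mitochondria, read 32.6, 38.4 and 33.2 CPM, against 44.2 to 52.6 CPM (-0.50 ± 0.13 SE, edgeR adjusted p = 0.0399). These groups stood clear of each other, with the highest single cell below the lowest of the 6. MRPL20, among the most abundant members, read 66.9, 56.5 and 66.5 CPM, against 74.1 to 98.5 CPM (-0.49 ± 0.12 SE, edgeR adjusted p = 0.0330). MRPS9, whose bacterial counterpart touches the tRNA in the P site, read 93.4, 93.6 and 74.4 CPM, against 107 to 128 CPM (-0.48 ± 0.10 SE, edgeR adjusted p = 0.0256).

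MRPS12, the counterpart of the bacterial decoding-centre protein in which streptomycin resistance arises, was the member that rose. It read 39.2, 62.6 and 41.0 CPM in the single cells, against 28.7 to 31.4 CPM in the 6 libraries, so that 1 cell stood well above the other 2 and all 3 above the rest. The log2 fold change was 0.64 ± 0.16 (SE; edgeR adjusted p = 0.0394). MRPS12 (chr19, plus strand) shares 14.3% of its exon bases with SARS2 on the opposite strand, the mitochondrial seryl-tRNA synthetase, which read 24.8, 34.4 and 6.65 CPM in the single cells, against 24.4 to 26.8 CPM.

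**Figure D2:**
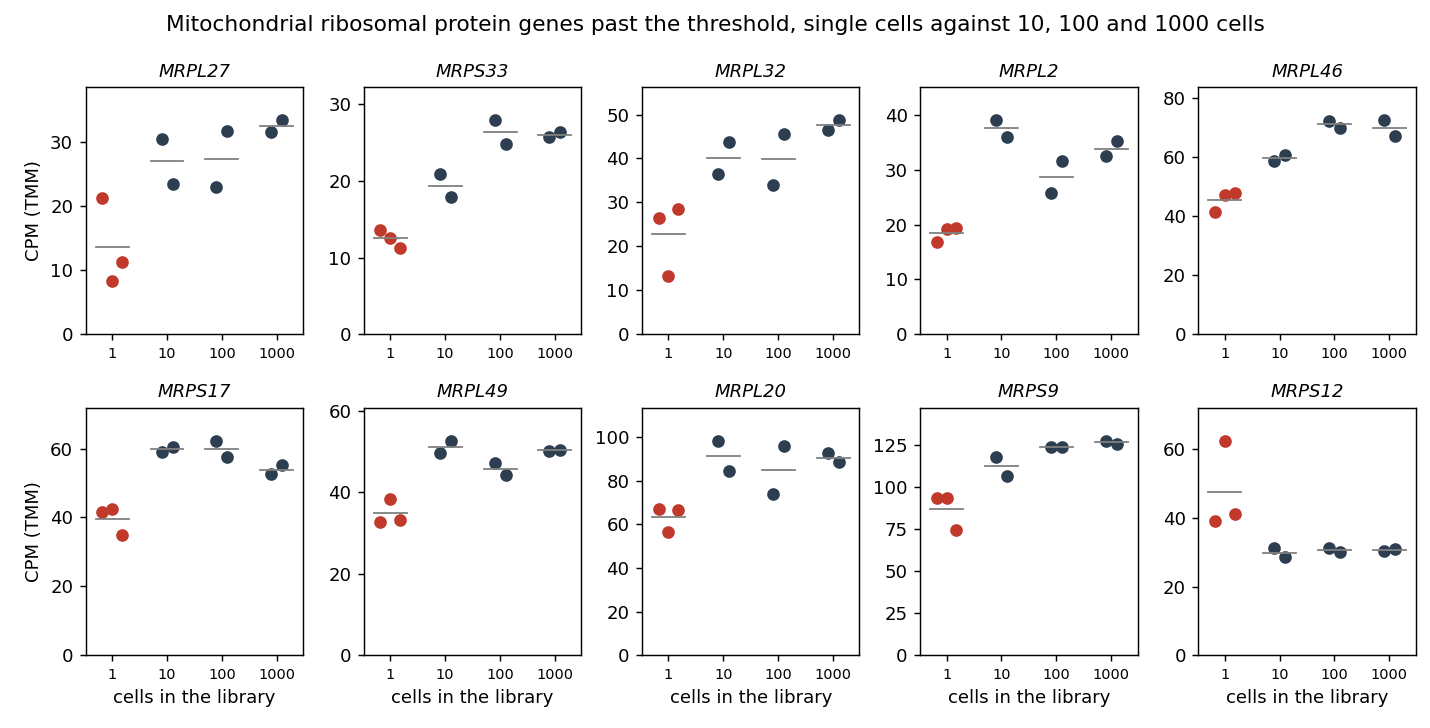
CPM (y axis, from 0) of the 10 members past the threshold by the number of cells in the library (x axis), with 1 point a library, red for single cells, and grey lines at the mean of each cell number. The 3 single cells lie below the 6 other libraries for 9 genes and above them for MRPS12, where they reach 62.6 CPM against at most 31.4 CPM.

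The calls depended on how the spread was estimated. The 6 larger libraries agree closely and the single cells do not, and limma, when it was given 1 estimate of the spread per number of cells, called 0 of the 77 members. Its smallest adjusted p over all genes was 0.0905, and 6 members had an unadjusted p under 0.05. An edgeR fit of the 4 cell numbers as separate groups also called 0 members (17 unadjusted, smallest adjusted p 0.0833), while DESeq2 called 17 (22.1% of the members, against 15.2% of all genes it tested). Without 100 cells Rep 2, 1000 cells Rep 1 or 1000 cells Rep 2 the edgeR test called 0 members, with smallest adjusted p over all genes of 0.0569, 0.0540 and 0.0565, and without 10 cells Rep 1, 10 cells Rep 2 or 100 cells Rep 1 it called 5, 4 and 4 (6.49%, 5.19% and 5.19%, against 4.78%, 4.33% and 4.40% of all genes). Without any gene filter it called 6 (7.79%, against 3.31%). Leaving out single cell Rep 1, 2 or 3 gave 13, 13 and 12, among which were 10, 9 and 9 of the 10. These are 16.9%, 16.9% and 15.6% of the members, against 17.8%, 19.8% and 15.0% of all genes, so that the members' share of calls was below or close to that of all genes.

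At an unadjusted p under 0.05, 18 members (23.4%) differed, the 10 called included, against 24.5% of all genes tested. Besides the called ones, 6 were lower and 2 higher in single cells. The median log2 fold change of the 77 was -0.06, with 48 (62.3%) below 0, against 0.01 over all genes tested, with 48.8% below 0. It was -0.05 for the large and -0.14 for the small subunit, -0.08 for members with a bacterial counterpart and -0.06 for those specific to mitochondria. The 81 cytosolic ribosomal proteins, of which 80 were tested, had a median of -0.06, with 2 higher and 3 lower.

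The 3 single cells and the 6 other libraries did not overlap for 14 members, or 18.2%, against 15.0% of all genes tested. Besides the 10 called these were MRPS27, MRPL18 and MRPL3 on the low side and MRPL37 on the high side, named after their values were seen. MRPL37, specific to mitochondria, read 143, 127 and 133 CPM in the single cells, against 108 to 120 CPM. MRPL3, one of the proteins nearest the peptidyl transferase centre, read 109, 114 and 116 CPM, against 119 to 142 CPM. MRPL18 read 92.3, 86.4 and 89.2 CPM, against 95.5 to 111 CPM, and MRPS27 read 72.1, 64.2 and 57.8 CPM, against 72.2 to 94.8 CPM, so that MRPS27 separated by a margin far smaller than the spread.

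The spread of the members was measured as the SD of log2 CPM between libraries of the same cell number. Its median over the 77 was 0.331 among the 3 single cells, 0.124 for 10 cells, 0.118 for 100 cells and 0.0415 for 1000 cells (2 libraries each). For the 8412 genes whose level lies in the members' range, the same medians were 0.449, 0.126, 0.114 and 0.0503, so the members were close to other genes in the larger libraries and had the lower median in single cells. This is a description over genes, which are not replicates. The SD between single cells mixes differences between cells with those of extraction and library preparation, which cannot be told apart here. The 8412 genes share the range of level but were not matched to the members within it. Among the members the spread fell with the level, so the 2 medians are not compared at equal level.

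The steadiest members were MRPL51, MRPL3, MRPL18, MRPL50 and MRPL39, with SDs between 0.0417 and 0.0765 among single cells. MRPL51 read 80.1, 84.8 and 82.2 CPM in the single cells, and between 64.2 and 82.6 CPM in the 6 others. MRPL39, specific to mitochondria, read 49.8, 53.2 and 55.2 CPM in the single cells, and between 50.3 and 60.3 CPM in the others. MRPL50 read 38.6, 37.6 and 41.4 CPM, and between 38.2 and 48.1 CPM. For each of these 3 genes the single cells spanned a narrower range of CPM than the 6 other libraries. The genes were picked for their small SD among single cells, and 3 values tend to span less than 6. The narrower range is therefore not read as a trait of these genes.

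At the other end were MRPS24, MRPL55, MRPL54, MRPS36 and MRPL13, the 5 members with an SD above 1 on the log2 scale. MRPS24, the counterpart of the bacterial protein at the messenger RNA entrance, read 2.97, 1.57 and 0.0192 CPM in the single cells, against 2.78 to 4.11 CPM in the 6 others. The last value is 1 count, or 0.551% of the mean of the 6, with an exact 95% Poisson interval from 0.0140% to 3.07% that covers counting error only. MRPL55 read 13.9, 12.9 and 0.421 CPM, against 9.32 to 15.0 CPM, and MRPL54, specific to mitochondria, read 18.4, 25.1 and 2.76 CPM, against 10.4 to 15.3 CPM. In all 3 genes single cell Rep 3 was the low one. MRPS36 was lowest in single cell Rep 1, with 1.62, 6.92 and 14.2 CPM in the 3 cells, against 9.10 to 13.9 CPM. MRPL13 read 14.6, 60.7 and 28.6 CPM, against 25.8 to 38.2 CPM, and was low in Rep 1 and high in Rep 2. The spread among single cells fell with the level, with a Spearman rho of -0.477 between SD and mean CPM over the 77 genes, which share libraries and depth.

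**Figure D3:**
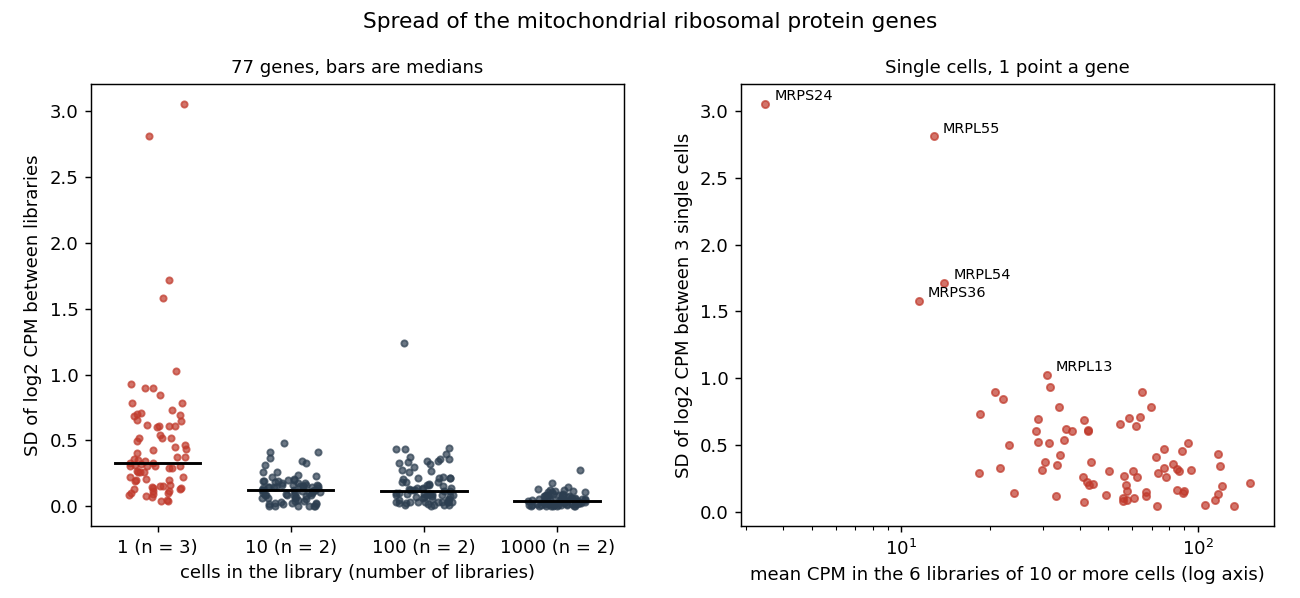
Left, the SD of log2 CPM between libraries of 1 cell number (y axis) for the 77 genes, 1 point a gene, with black bars at the medians of 0.331, 0.124, 0.118 and 0.0415. Right, the SD among the 3 single cells (y axis) against the mean CPM in the 6 libraries of 10 or more cells (x axis, log scale), where the 4 genes above 1.5 all have a mean under 14 CPM.

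Most of the low members were low in 1 single cell. Counting members that lay more than 1.5-fold from the mean of the 6 larger libraries and outside their range, 16, 17 and 18 stood apart in single cells Rep 1, 2 and 3, which is 20.8%, 22.1% and 23.4% of the members, against 25.8%, 24.3% and 32.5% of the 9875 genes at 10 CPM or more. Over the 3 cells 42 of the 51 cases (82.4%) were low, against 53.4% of 8153 cases among those genes. The cases fell on 38 members, and 39 members stood apart in no cell. Of those on the low side, 26 were low in 1 cell and 5 in 2 cells (MRPL27, MRPL32, MRPS24, MRPS31 and MRPS36). The other 2, MRPL2 and MRPS33, were low in all 3. This split was not counted over all genes. In Rep 1 the lowest against the 6 libraries were MRPS36, MRPL23 and MRPL13, in Rep 2 MRPL27, MRPL32 and MRPS24, and in Rep 3 MRPS24, MRPL55 and MRPL54. Treated the same way, each of the 6 larger libraries against the other 5, at most 1 member (1.30%) stood apart in a library. Of the 9875 genes, 0.0506% to 2.49% did so.

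The balance of the subunits lay outside the range of the larger libraries in all 3 single cells, farthest in Rep 3. The paper grouped that cell with a separate subpopulation of the same cell line, seen by another single-cell method, apart from its other libraries. Whether the values of Rep 3 given here go with that subpopulation was not tested. The tests of single cells treated all 3 as replicates of 1 group. Summed over the members, the large subunit stood at 2441, 2361 and 2685 CPM in single cells Rep 1, 2 and 3, against 2452 to 2721 CPM in the 6 others. The small subunit stood at 1852, 1755 and 1378 CPM, against 1678 to 1892 CPM. The ratio of large to small was 1.32, 1.35 and 1.95, against 1.40 to 1.49, so that Rep 3 was above and Rep 1 and 2 were below all 6 libraries. No such ratio was taken for other sets of genes. In each single cell most of the 9875 genes at 10 CPM or more also lay outside the 6 libraries. In Rep 3, 19 of the 29 small-subunit members were below all 6 libraries and 3 were above them, while 16 of the 48 large-subunit members were below and 17 above. That is 65.5% below and 10.3% above for the small subunit and 33.3% below and 35.4% above for the large, against 38.1% below and 37.7% above among the 9875 genes at 10 CPM or more. In Rep 1, 10 small-subunit members were below and 11 above (34.5% and 37.9%, against 35.9% and 36.2% of those genes), and in Rep 2, 11 were below and 7 above (37.9% and 24.1%, against 35.1% and 34.8%). Of the 48 large-subunit members, 21 were below and 12 above in Rep 1 (43.75% and 25%). In Rep 2, 20 of them were below and 11 above (41.7% and 22.9%). With MRPS18A and MRPS30, which structures place in the large subunit, counted there and MRPS36 left out, the ratio was 1.46, 1.45 and 2.10, against 1.53 to 1.64. These are values of single cells, described after they were seen, and carry no test.

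Members that took part in the low small subunit of single cell Rep 3 included abundant ones. MRPS26, specific to mitochondria, read 30.4 CPM there and 81.8 and 74.1 CPM in Rep 1 and 2, against 61.9 to 78.8 CPM in the larger libraries. MRPS6, which binds next to MRPS18 on the platform of the small subunit in bacteria, read 28.0 CPM there and 94.0 and 66.2 CPM in the other 2 cells, against 51.7 to 72.5 CPM. MRPS22, specific to mitochondria, read 37.6 CPM there and 86.0 and 89.9 CPM in the other cells, against 50.9 to 72.2 CPM. MRPS15 read 50.5 CPM there and 90.7 and 96.7 CPM in the other cells, against 77.4 to 99.9 CPM.

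**Figure D4:**
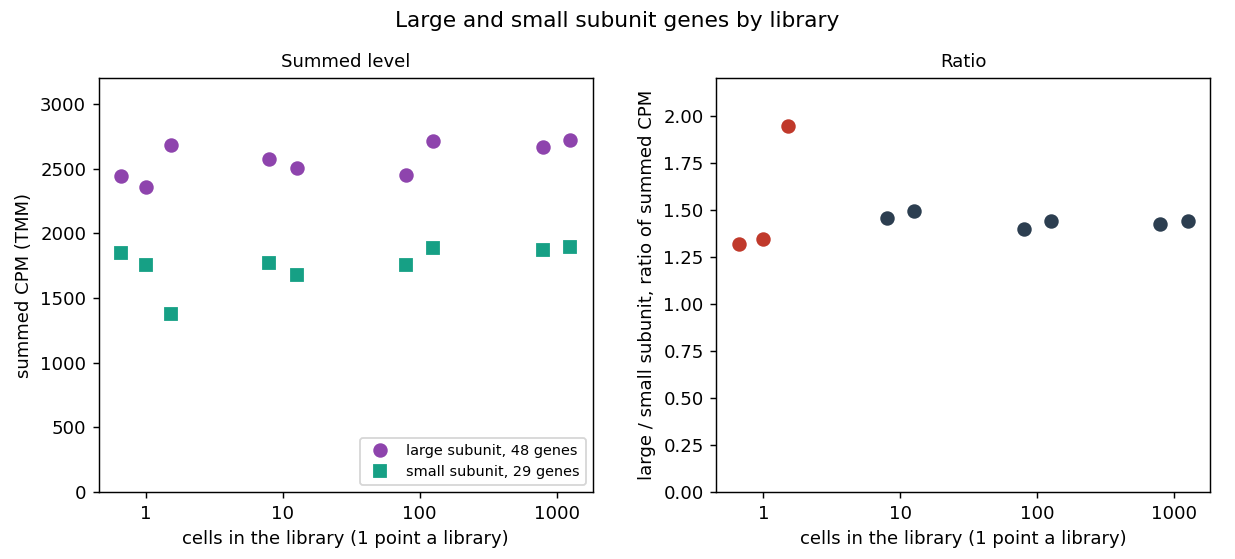
Left, summed CPM (y axis, from 0) of the 48 large-subunit genes (purple circles) and the 29 small-subunit genes (green squares) by cells in the library (x axis), 1 point a library. Right, their ratio, where single cell Rep 3 is at 1.95, the other single cells are at 1.32 and 1.35, and the 6 other libraries lie between 1.40 and 1.49.

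MRPS18A, MRPS18B and MRPS18C are 3 human versions of 1 bacterial protein, of which a mitoribosome holds all 3, each at its own place. MRPS18B was the highest in every library, with 101, 90.1 and 65.1 CPM in the single cells, against 72.4 to 83.6 CPM in the 6 others. MRPS18A read 42.7, 24.9 and 11.8 CPM in the single cells, against 24.1 to 37.0 CPM, and MRPS18C read 56.8, 19.2 and 31.7 CPM, against 26.5 to 40.8 CPM. In the single cells all 3 were highest in Rep 1, while the lowest was Rep 3 for MRPS18A and MRPS18B and Rep 2 for MRPS18C. None of the 3 passed the threshold. MRPS18C shares 60.2% of its exon bases with FAM175A on the opposite strand.

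MRPL46 (chr15:88459478-88467402, minus strand) and MRPS11 (chr15:88467453-88478630, plus strand) stand head to head with 50 bases between them, in the part of chromosome 15 that HAP1 cells are known to carry in 2 copies. MRPS11, whose bacterial counterpart lies at the messenger RNA exit, read 88.2, 61.7 and 60.9 CPM in the single cells, against 73.0 to 94.98 CPM in the 6 others. It did not pass the threshold where MRPL46 did (edgeR adjusted p = 0.236), and in single cell Rep 1 it was well inside the range of the 6 while MRPL46 was at its lowest. The difference between the genes was not tested.

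Libraries of 10 cells were compared with the 4 libraries of 100 and 1000 cells to see from which input on the members read alike. No member passed the threshold by edgeR's quasi-likelihood test, against 0.0188% of 15926 genes, and 15 members (19.5%) had an unadjusted p under 0.05, of which 14 were lower and 1 was higher, against 13.4% of all genes (1169 lower and 968 higher). DESeq2 called 3 members (3.90%, against 1.25% of all genes) and limma 0, and edgeR called 2 without 100 cells Rep 1 (2.60%, against 1.03%). In the 77 members the 2 groups did not overlap for 22 (28.6%), against 23.1% of all genes tested, with 18 on the low side and 4 on the high side. The median log2 fold change was -0.09 over the members, with 54 of 77 (70.1%) below 0, against 0.00 over all genes, with 49.9% below 0. It was -0.06 for the large and -0.14 for the small subunit, and -0.12 for the cytosolic ribosomal proteins, of which 68 of 79 were below 0 and 1 was called lower. Both comparisons use the libraries of 10, 100 and 1000 cells, so their values are not independent.

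The 5 members with the smallest p are given with their values. MRPL4, which lines the exit tunnel of the large subunit, read 114 and 111 CPM in 10 cells, against 84.5 and 89.4 CPM in 100 cells and 84.2 and 87.3 CPM in 1000 cells (log2 fold change 0.38 ± 0.06 SE, edgeR adjusted p = 0.172). MRPS11 read 73.0 and 75.0 CPM in 10 cells, against 89.9, 92.1, 93.4 and 94.98 CPM in the larger libraries (-0.32 ± 0.07 SE, edgeR adjusted p = 0.222). MRPL33, a very small protein with a bacterial counterpart, read 15.6 and 16.8 CPM, against 20.0 to 27.9 CPM (-0.57 ± 0.16 SE, edgeR adjusted p = 0.235). None of these passed the threshold, although their groups did not overlap. MRPS33 read 20.9 and 17.9 CPM, against 24.8 to 28.0 CPM (-0.43 ± 0.12 SE, edgeR adjusted p = 0.246). MRPS6 read 60.6 and 51.7 CPM, against 67.0 to 72.5 CPM (-0.30 ± 0.09 SE, edgeR adjusted p = 0.258).

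The genes that build and use the mitoribosome were counted from lists of the pathway. In single cells against the 6 other libraries, 0 of 6 mitoribosome proteins without an MRP name, 1 of 26 assembly factors, 2 of 14 translation factors, 1 of 20 mitochondrial aminoacyl-tRNA synthetases, 1 of 15 genes of mitochondrial transcription and RNA and 0 of 8 genes that control mitochondrial genes were called by edgeR. Over the 6 lists 5 of 89 genes (5.62%) were called, against 6.67% of all genes, and 17 (19.1%) had an unadjusted p under 0.05, against 24.5%. At that p the list of 6 held 1 gene and the list of 8 held 0. In 10 cells against 100 and 1000 cells, edgeR called 0 genes of these 6 lists, with 2, 3, 0, 3, 1 and 1 at an unadjusted p under 0.05 (11.2% of the 89, against 13.4% of all genes). FASTKD2, an RNA-binding protein needed to assemble the large subunit, had the largest change of the 5 called, with 27.9, 14.4 and 41.6 CPM in the single cells, against 7.22 to 11.4 CPM in the 6 others (log2 fold change 1.61 ± 0.30 SE, edgeR adjusted p = 0.0195). MRRF, the mitochondrial ribosome recycling factor, read 49.1, 59.9 and 72.1 CPM, against 40.2 to 43.5 CPM (0.53 ± 0.13 SE, edgeR adjusted p = 0.0369). TACO1, a translational activator of the cytochrome c oxidase subunit COX1, read 15.9, 21.1 and 21.9 CPM, against 29.5 to 35.3 CPM (-0.76 ± 0.17 SE, edgeR adjusted p = 0.0269).

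EARS2, the mitochondrial glutamyl-tRNA synthetase, read 105, 110 and 126 CPM in the single cells, against 84.4 to 93.1 CPM in the others (log2 fold change 0.35 ± 0.09 SE, edgeR adjusted p = 0.0411). TFAM, which packs mitochondrial DNA and starts its transcription, read 87.0, 114 and 125 CPM, against 147 to 156 CPM (-0.47 ± 0.11 SE, edgeR adjusted p = 0.0296). The highest gene per kilobase of each list was GADD45GIP1, NGRN, TUFM, IARS2, SLIRP and MYC. TUFM, the elongation factor that brings aminoacyl-tRNA to the mitoribosome, read 435, 329 and 270.3 CPM in the single cells, against 331 to 385 CPM. GADD45GIP1, a large-subunit protein without an MRP name, read 139, 132 and 133 CPM, against 119 to 145 CPM, and none of these 6 genes was called.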

How the data were processed

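The deposited values are whole read counts for 26485 gene models in 9 libraries, which the authors made with FastQC 0.11.9, Trim Galore 0.6.7, HISAT2 2.2.1 on hg38, SAMtools 1.16.1 and featureCounts of Subread 2.0.6. Per the file headers, counting used the strand and counted reads rather than pairs. Reads mapped to several places or overlapping 2 genes were left out. Neither molecular identifiers nor normalization entered the counts, so intervals cover counting error only. The annotation release is not given in the sources used here.

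Counts were scaled with TMM in edgeR 4.0.16 (R 4.3.3). CPM are TMM-scaled, log2 CPM used a prior count of 2, and RPKM used the exon length on the primary chromosome, since the deposited length of 4 members adds copies on alternate sequences. Genes were kept with filterByExpr. The main test was edgeR's quasi-likelihood test with Benjamini-Hochberg adjustment over all genes and a threshold of 0.05, for single cells against 10, 100 and 1000 cells (15603 genes) and for 10 cells against 100 and 1000 cells (15926 genes). It was tested on simulated data with 200 changed genes. In the first comparison it recovered 47% and 63% of genes changed by 1 and 2 log2 units, with 8 false calls. In the second it recovered 60% and 83%, with 8 false calls. The simulation gave all libraries the same spread for a gene. Its counts therefore do not cover the unequal spread of single cells and larger libraries in the data. limma 3.58.1 and DESeq2 1.42.0 gave alternatives, with other filters, size factors, the replicate number as a block and each library left out in turn. Promoter windows are from RefSeq GRCh38.p14. Exon overlaps were counted from the gene models listed in the count tables.

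The members, the gene lists and the comparisons were chosen with earlier results of these data known. Genes named are the members past the threshold, the 5 highest and 5 lowest in RPKM, the 5 with the largest and smallest SD among single cells, MRPS18A to MRPS18C, MRPL46 and MRPS11, and the called and highest genes of the pathway lists. Other names were chosen after their values were seen.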

Additional observations from a re-analysis of the deposited data

Results flagged for a closer look

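In 9 of the 77 members (11.7%), 1 of the 6 libraries of 10 or more cells stood away from the other 5 by Dixon's test. Chance gives about 1 in 20 only where all 6 libraries have the same spread. The median SD of log2 CPM was 0.124 for 10 cells and 0.0415 for 1000 cells. The share over all genes was not counted, so the 11.7% is not read as a trait of the members. The most distant was MRPL23, a protein at the exit of the tunnel in bacteria, which read 49.0 CPM in 100 cells Rep 2, against 13.3 to 18.4 CPM in the other 5 libraries. MRPL24 read 31.3 CPM in 10 cells Rep 2, against 41.8 to 44.7 CPM in the others. MRPL21 read 50.8 CPM in 10 cells Rep 2, against 61.96 to 64.2 CPM in the others. MRPS7 read 45.1 CPM in 10 cells Rep 2, against 57.1 to 63.3 CPM in the others. MRPL18 read 95.5 CPM in 10 cells Rep 2, against 105 to 111 CPM in the others. MRPL54 read 10.4 CPM in 10 cells Rep 1, against 13.6 to 15.3 CPM in the others. MRPL35 read 63.1 CPM in 10 cells Rep 1, against 73.4 to 78.5 CPM in the others. MRPL53 read 13.6 CPM in 100 cells Rep 1, against 18.95 to 20.4 CPM in the others. MRPL52 read 33.0 CPM in 1000 cells Rep 2, against 35.5 to 36.99 CPM in the others. Of the 9 values, 8 were low, and 6 were in a library of 10 cells.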

How the results depend on the processing

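In single cells against the 6 other libraries, 10 members were called in the main test and also with DESeq2 size factors and among genes of at least 10 CPM. The count was 6 without a filter (20579 genes tested; 7.79% of the members, against 3.31% of all genes), 17 with DESeq2 (22.1%, against 15.2%), 0 with limma at 1 spread per cell number and 0 with the 4 cell numbers in 1 fit, and leaving out 1 library gave 0 to 13. Over the 10 called members, 86 of 160 values under the alternatives stayed past the threshold and 74 did not, with 0 reversed. In 10 cells against 100 and 1000 cells the count was 0 in the main test, 3 with DESeq2 and 0 to 2 with 1 library left out. The median log2 fold change of the members lay between -0.12 and -0.051 for single cells and between -0.14 and -0.054 for 10 cells when 1 library was left out. With the replicate number as a block, 12 members (15.6%, against 13.3% of all genes) were called in single cells, 9 of them among the 10, and 0 in 10 cells. Same-numbered libraries did not deviate together (correlations of -0.0447 to 0.0511), and no pairing was assumed. Between groups of 2 libraries, both replicate numbers give the same correlation. These values cannot tell whether same-numbered libraries shared a culture or a sort. Without the 30 highest genes in the denominator, the members took 0.472% of the counts in single cells, 0.487% in 10 cells, 0.498% in 100 cells and 0.522% in 1000 cells. MRPS24 had 1 count in a single cell, and no other member was under 3 counts. Whether depth or the shared exons of MRPS24 set this value was not tested.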
